A study of Rattus norvegicus with 30 samples.

Results

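The genes described here encode 9 components and regulators of the complement system, measured in rat primary hepatocytes exposed to acetaminophen. They are C1s, C3, C5, C6, C8a, C8b, C9, C4bpa and Cfi, taken by their symbols from a list made with earlier results of these data known. Counts of the 9 genes beside all tested genes are therefore descriptions and not a test of the set. Other complement genes, such as C1r, C8g and Mbl2, stood in a separate list and are described further below. They make up 9 of the 14217 genes that the array annotation names. Each of them had 1 probe set, so no other probe set could be set beside it. All 9 lay among the 8531 genes tested, which were the brightest 60% of genes by mean log2 signal over all arrays, whatever the group.

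Complement is a cascade of plasma proteins, most of them made by hepatocytes, in which proteases cleave and deposit components on target surfaces. The C1 complex and the lectins start the cascade, C3 is the component at which the pathways meet, and C5, C6, C7, C8 and C9 assemble the pore called the membrane attack complex. Plasma regulators such as C4b-binding protein and factor I break down the activated fragments. Several of these genes are known as acute phase genes of the liver, driven by cytokines.

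The cells were male Sprague Dawley rat hepatocytes bought frozen from XenoTech, plated on collagen under Matrigel, and dosed on day 3 of culture. Wells received 500 µM acetaminophen for 24 h, 5000 µM acetaminophen for 24 h, 500 µM for 48 h or 5000 µM for 48 h, each set against vehicle wells (1% DMSO) of the same time. Each of the 6 groups held 5 wells, each hybridised to 1 Affymetrix array, which gave 30 arrays. The acetaminophen solutions were made up in DMSO too. The labels describe the 5 wells of a group as separate cultures of one kind of purchased cell, so the p-values speak for variation from well to well, not from animal to animal. The labels name no other cell type in the cultures, and the number of donor rats is not given in the sources used here. Both doses of a time were compared with the same vehicle arrays.

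Values are MAS5 signals, an intensity on a linear scale that the authors had brought to one common level per array. A signal can be compared between groups for one gene, but not as an amount between genes. Levels of several genes and sums over markers are given below as descriptions. Changes are log2 differences between group means with their standard errors, from one limma fit over all 30 arrays. Calls rest on limma p-values adjusted by the Benjamini-Hochberg method across the 8531 genes, with a threshold of 0.05, and adjusted p-values below are of this kind unless stated otherwise. Each signal is relative to the rest of its array. Neither the number of cells in a well nor the RNA per cell can be read from it.

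The cells carried hepatocyte transcripts throughout. The 7 hepatocyte markers on the array, out of 8 listed (Alb, Ttr, Apoa1, Serpina1, Apob, Hpx and Cps1), had geometric mean signals between 49200 and 60300. Among 9 named Kupffer cell and leukocyte markers, Cd163, Clec4f, Csf1r, Ptprc, Adgre1 and Laptm5 lay between 22.9 and 333, below the dimmest tested gene (469). Cd68 (848), Lyz2 (7110) and Cd14 (16100) lay above it. The summed signal of these 9 markers was lower at 5000 µM. It ranged from 19890 to 22710 at 5000 µM against 22900 to 30600 in vehicle at 24 h, and from 20990 to 23050 against 24580 to 28670 at 48 h, with Cd14 and Lyz2 giving most of it. Of the 3 of these markers that were tested, 1 was called lower at each time, where 19.6% and 18% of all tested genes were. The sum of 4 cholangiocyte markers, most of it Epcam, ranged from 11960 to 13100 at 5000 µM and 48 h and from 10910 to 11570 at 500 µM and 48 h, against 13190 to 14400 in vehicle at 48 h and 9160 to 9596 in vehicle at 24 h. Krt19, Krt7 and Cftr of that list were between 11.9 and 148. Of 8 stellate cell and fibroblast markers, Col3a1 (568) and Acta2 (850) were tested. Of these 2, 1 was called lower at 5000 µM and 48 h, where 18% of all tested genes were, and neither was called at 24 h. Of 6 sinusoidal endothelium markers, Kdr alone was tested (506), and it was not called at 5000 µM. The part of these shifts in the changes of complement genes was not tested.

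RNA quality differed between groups and is given beside the results it moves with. The measure was a β-actin ratio, on the log2 scale, of the control probe set at the 3' end over that at the 5' end. In order of rising dose from vehicle, 500 µM to 5000 µM, the ratio came to 1.78 ± 0.24, 1.61 ± 0.33 and 1.37 ± 0.22 at 24 h and to 1.24 ± 0.11, 1.86 ± 0.12 and 1.21 ± 0.05 at 48 h (SD, n = 5 each). The widest gap in the ratios separated 12 arrays above it from 18 below, and at 48 h all 5 arrays at 500 µM lay above and all 10 others below. The 500 µM and vehicle arrays at 48 h differed by 0.62 and the vehicle arrays at 48 and 24 h by -0.53 (each exact permutation p = 0.00794, the smallest 5 against 5 can give, adjusted p = 0.0198 over 5 comparisons). For 5000 µM minus vehicle the ratio gave -0.41 at 24 h (p = 0.0476 in the exact permutation test, adjusted to 0.0794) and -0.03 at 48 h (p = 0.579 in the same exact test). The comparison of 5000 µM with vehicle at 48 h is therefore the one in which the ratio was closest between the groups.

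At 5000 µM the complement genes did not move as one. At 24 h, 6 of the 9 genes were lower than in vehicle (C1s, C3, C8a, C8b, C9 and C4bpa), where 19.6% of all tested genes were called lower, and 1 was higher (C6), where 18.6% of all tested genes were called higher. At 48 h, 4 were lower (C1s, C8b, C9 and Cfi), against a background of 18%, and 2 were higher (C3 and C8a), against a background of 14.6%. C1s and C9 fell most, to 0.47-fold and 0.362-fold of vehicle at 48 h. C3 and C8a were lower than vehicle at 24 h and higher than vehicle at 48 h. The median change of the 9 genes was -0.31 at 24 h and -0.11 at 48 h, beside medians of -0.003 and -0.01 over all tested genes.

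**Figure D1:**
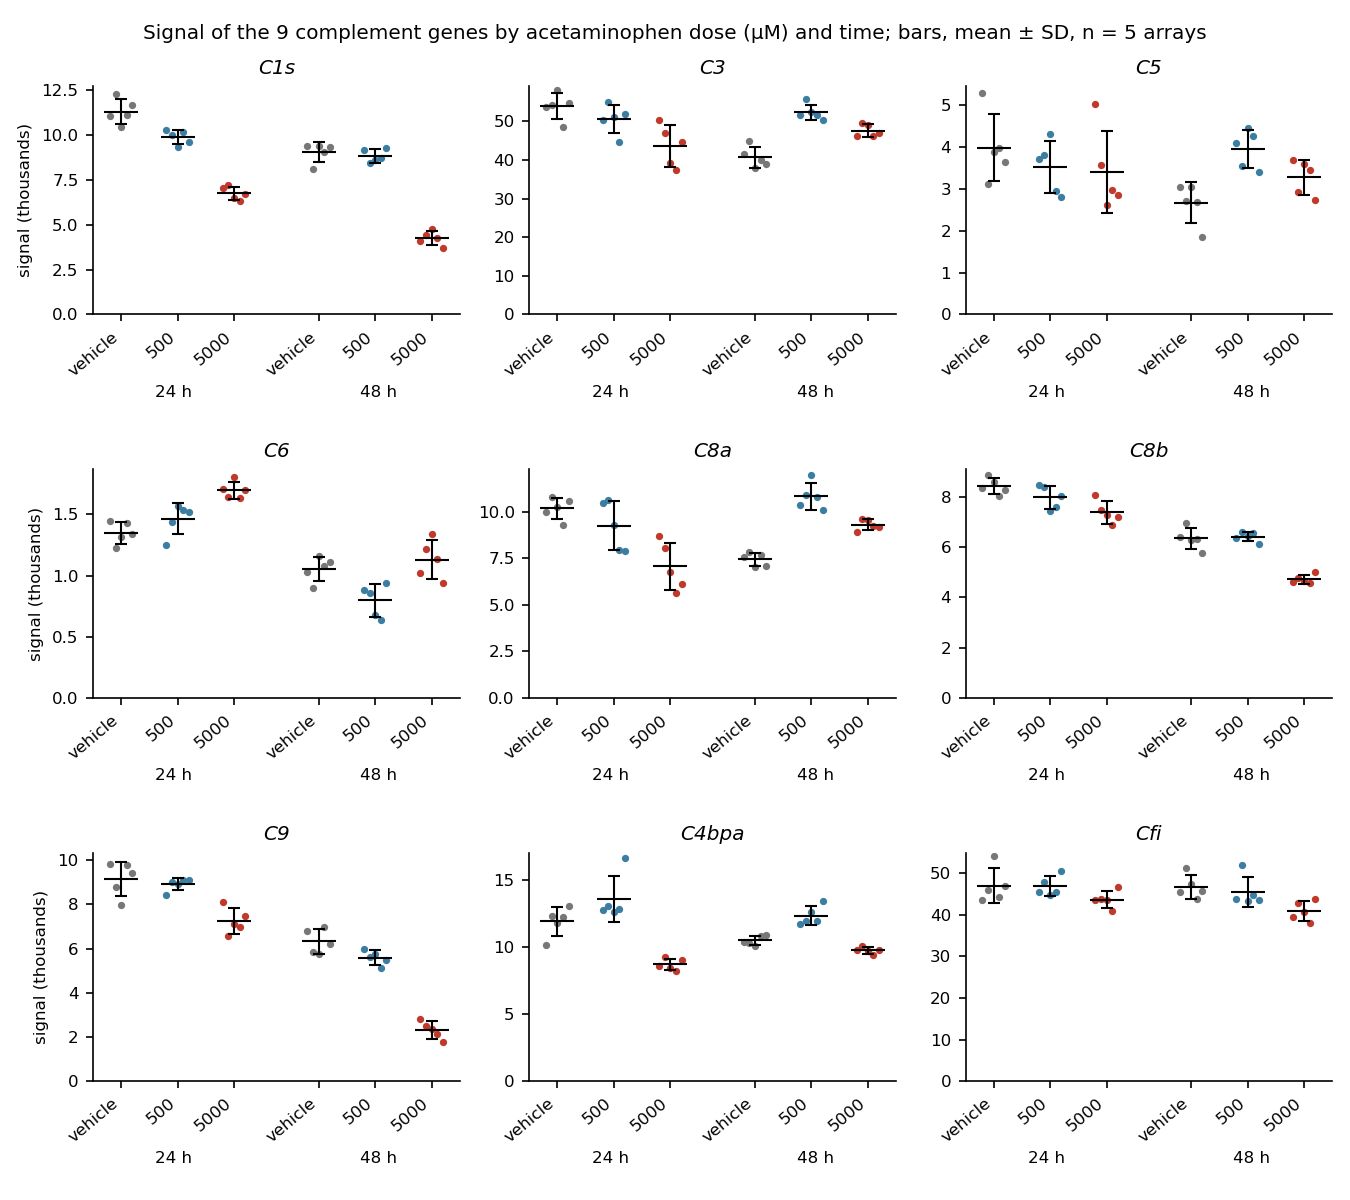
Signal of each of the 9 complement genes in every array, in MAS5 units with the axis in kilo-units, by acetaminophen dose and time, with points for the 5 arrays of a group and bars for the mean ± SD. At 48 h, for example, the 5 arrays at 5000 µM lie below all vehicle arrays for C9 and above all vehicle arrays for C8a. The share of all tested genes without overlap was not counted.

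C1s, the serine protease of the C1 complex that cleaves C4 and C2, fell at both times. At 24 h its signals were 7007, 7174, 6457, 6333 and 6683 at 5000 µM, against 11006, 12272, 10402, 11092 and 11623 in vehicle. At 48 h they were 4101, 4417, 4756, 4256 and 3720 at 5000 µM, against 9386, 8063, 9339, 9029 and 9304 in vehicle. The treated arrays lay wholly below the vehicle arrays at each time, with no overlap. The log2 changes were -0.74 ± 0.06 at 24 h (adjusted p = 1.29e-11) and -1.09 ± 0.06 at 48 h (adjusted p = 2.79e-15), and the effect was larger at 48 h by -0.34 ± 0.08 (interaction, adjusted p = 0.00433). With the β-actin ratio as a covariate the values were -0.73 and -1.09.

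C3, the central component whose cleavage opens the later steps, moved in opposite directions at the 2 times. Its signals at 24 h were 50384, 47012, 39106, 37309 and 44634 at 5000 µM, against 53717, 54254, 58068, 48582 and 54593 in vehicle. At 48 h they were 46049, 49638, 49114, 46077 and 46959 at 5000 µM, against 41540, 44872, 37852, 40082 and 38934 in vehicle. At 24 h 1 treated array reached into the vehicle range, and at 48 h all 5 treated arrays lay above all vehicle arrays. The change was -0.31 ± 0.07 at 24 h (adjusted p = 3.38e-04) and 0.23 ± 0.07 at 48 h (adjusted p = 0.00704), and the difference between times was 0.54 ± 0.09 (adjusted p = 1.36e-04). The 24 h change was -0.20 (adjusted p = 0.0292) and the 48 h change 0.24 (adjusted p = 0.00218) with the β-actin ratio as a covariate. The vehicle level itself was 40656 ± 2725 at 48 h, against 53843 ± 3402 at 24 h (SD, n = 5 each), so the 48 h rise is relative to a lower vehicle level.

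The promoter of C3 is shown because C3 changed sign between the times and because its window holds the one C/EBP match among these genes. RefSeq promoter windows on the GRCr8 assembly, from 250 bases before the start of transcription to 50 after it, were found for 7 of the 9 genes and not for C1s or C9. The bases printed are those before the annotated gene, 5' to 3', at chr9:2201340-2201589 on the minus strand, with matches to the searched motifs in capitals.
C3: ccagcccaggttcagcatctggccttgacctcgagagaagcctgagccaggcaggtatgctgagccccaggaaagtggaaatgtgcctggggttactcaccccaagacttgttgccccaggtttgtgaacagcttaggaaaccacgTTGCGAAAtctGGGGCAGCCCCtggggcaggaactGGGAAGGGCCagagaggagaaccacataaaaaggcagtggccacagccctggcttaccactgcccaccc

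The first capitals match the C/EBP letters TTNCGNAA, which begin at base -104 from the start and occur on either strand in 2.5% of 33469 windows of the same length. The others match the NF-kB motif searched, GGG and CC with any 5 bases between them, of which 2 matches overlap in the middle run, and which occurs in 47.3% of windows. A match is a string of letters and not a shown binding site.

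Of the terminal components, C9 changed most. C9 is the subunit that polymerises to complete the membrane attack pore. Its signals at 24 h were 8122, 6588, 7110, 6970 and 7480 at 5000 µM, against 9821, 8786, 7960, 9768 and 9425 in vehicle. At 48 h they were 2825, 2492, 2356, 2118 and 1763 at 5000 µM, against 6819, 5866, 5751, 6991 and 6221 in vehicle. The highest treated array overlapped the lowest vehicle array at 24 h, and at 48 h the highest treated array was under the lowest vehicle array. The change was -0.33 ± 0.09 at 24 h (adjusted p = 0.00217) and -1.47 ± 0.09 at 48 h (adjusted p = 1.4e-14), and the effects differed by -1.13 ± 0.12 (adjusted p = 8.3e-08). The geometric mean signal also differed most across the 6 groups for C9. It was 3.998 times as high in vehicle at 24 h as at 5000 µM and 48 h, a range of 2.00 on the log2 scale beside a median range of 0.42 over all tested genes.

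C8a and C8b, the α and β chains of C8, went in opposite directions at 48 h. C8a had 8680, 8069, 6765, 5653 and 6127 at 5000 µM and 24 h, against 10001, 10802, 10266, 9294 and 10550 in vehicle. At 48 h it had 8897, 9593, 9576, 9213 and 9191 at 5000 µM, against 7573, 7840, 7047, 7658 and 7072 in vehicle. All treated arrays were thus below the vehicle arrays at 24 h and all above them at 48 h, with changes of -0.55 ± 0.09 (adjusted p = 9.73e-06) and 0.32 ± 0.09 (adjusted p = 0.00504) and a difference of 0.87 ± 0.13 (adjusted p = 1.23e-05). C8a had a smaller 24 h change, -0.33 (adjusted p = 0.00176), and a 48 h change of 0.34 (adjusted p = 1.76e-04), with the β-actin ratio as a covariate.

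C8b had 8073, 7488, 7263, 6873 and 7219 at 5000 µM and 24 h, against 8338, 8883, 8611, 8049 and 8292 in vehicle. At 48 h it had 4611, 4783, 4656, 4554 and 5005 at 5000 µM, against 6406, 6972, 6288, 6308 and 5777 in vehicle. The groups overlapped by 1 array on each side at 24 h and were wholly apart at 48 h. The change was -0.19 ± 0.05 at 24 h (adjusted p = 0.00386) and -0.43 ± 0.05 at 48 h (adjusted p = 1.27e-07). At 24 h the call was lost with the β-actin ratio as a covariate (-0.11, adjusted p = 0.134). The difference between times, -0.23 ± 0.07 (adjusted p = 0.0297), passed 0.05 by little, and leaving out any of 4 arrays gave adjusted p-values between 0.0533 and 0.0631.

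In the rat genome these genes are neighbours on chromosome 5. C8b spans chr5:124763974-124801522 and C8a spans chr5:124812131-124866631 in GRCr8, with 10608 bases between them, and they are read towards each other. Their promoters therefore lie at the outer ends of the pair, and they are shown because the neighbours moved apart at 48 h. The C8a bases are chr5:124866632-124866881 on the minus strand, and the C8b bases, cut where the annotated gene begins, are chr5:124763864-124763973 on the plus strand.
C8a: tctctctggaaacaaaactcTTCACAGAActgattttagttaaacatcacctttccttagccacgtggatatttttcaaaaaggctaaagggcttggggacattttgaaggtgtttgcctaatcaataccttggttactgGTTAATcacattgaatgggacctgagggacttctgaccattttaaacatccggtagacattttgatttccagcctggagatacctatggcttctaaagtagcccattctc
C8b: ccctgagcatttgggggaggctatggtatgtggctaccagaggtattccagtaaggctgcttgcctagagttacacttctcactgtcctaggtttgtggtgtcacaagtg

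The first capitals of C8a match the STAT letters TTCNNNGAA, present in 8.87% of windows, and the second match the HNF1 letters GTTAAT, present in 7.45%. The full C8b window holds none of the 5 motifs searched, and nothing follows from that about the factors. C4bpa and C5 also hold GTTAAT, C5 also holds a match to the NF-kB letters, and no window of these genes holds the HNF4 letters CAAAGTCCA, found in 0.391% of windows.

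The ratio of C8a to C8b was taken within each array after these values had been seen. Its log2 value at 24 h was -0.08 ± 0.18 at 5000 µM, against 0.27 ± 0.05 in vehicle (SD, n = 5 each). At 48 h it was 0.98 ± 0.07 at 5000 µM, against 0.23 ± 0.06 in vehicle. The difference was -0.35 at 24 h and 0.75 at 48 h, with all 5 treated arrays on one side of all 5 vehicle arrays each time. At 500 µM the ratio was 0.20 ± 0.17 at 24 h, a difference of -0.07 from vehicle, and 0.75 ± 0.08 at 48 h, a difference of 0.52. No test is given for these differences, since the ratio was formed because its 2 genes had been seen to move apart. Of the 500 µM arrays at 24 h, the 3 above the gap in the β-actin ratio had 0.305 to 0.345 and the 2 below it, replicates 4 and 5, 0.067 and -0.028. The vehicle arrays of 24 h showed no such split, with 0.254 to 0.282 above the gap and 0.207 and 0.347 below it. At 5000 µM and 24 h the 1 array above the gap had 0.105, and those below it ran from -0.282 to 0.108. The same covariate as above, the β-actin ratio, left differences at 5000 µM of -0.22 at 24 h and 0.76 at 48 h, and of -0.02 and 0.33 at 500 µM. C8g, the third chain of C8, was not called at 24 h (0.12 ± 0.07, adjusted p = 0.211) and fell at 48 h (-0.23 ± 0.07, adjusted p = 0.0137), in the direction of C8b.

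**Figure D2:**
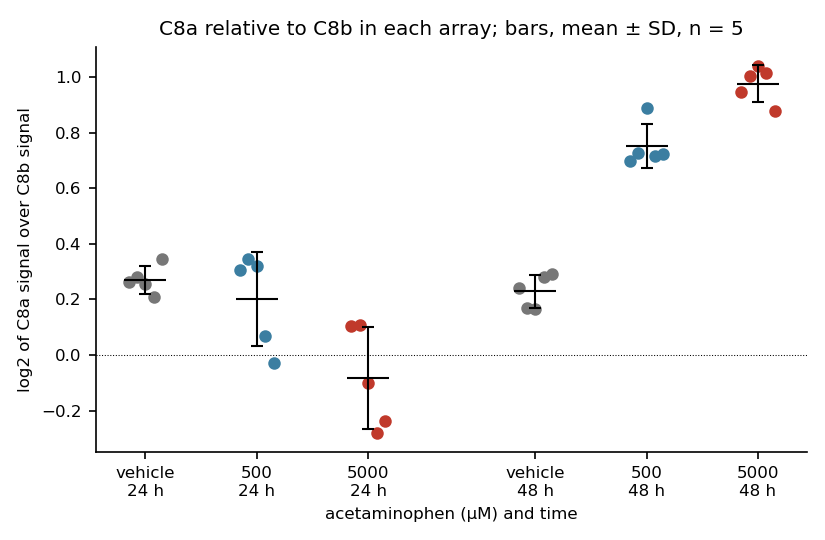
Log2 of the C8a signal over the C8b signal in each array, by acetaminophen dose and time, with bars for the mean ± SD of 5 arrays. The 24 h arrays at 5000 µM lie below their vehicle arrays, and the 48 h arrays at both doses lie above theirs.

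C6, which joins C5b in the first step of pore assembly, was the dimmest of these genes, with signals of 633 to 1809 over the 30 arrays. At 24 h it had 1705, 1641, 1809, 1637 and 1700 at 5000 µM, against 1442, 1222, 1317, 1430 and 1337 in vehicle. All treated arrays lay above all vehicle arrays, a change of 0.33 ± 0.10 (adjusted p = 0.0113) that lost its call with the β-actin ratio as a covariate (0.23, adjusted p = 0.155). At 48 h the groups overlapped and the change was 0.09 ± 0.10 (adjusted p = 0.545).

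C5, the source of the C5a peptide and of C5b, varied most between wells of one group. Its signals ranged from 2615 to 5029 at 5000 µM against 3122 to 5280 in vehicle at 24 h, and from 2721 to 3677 against 1841 to 3041 at 48 h. The groups overlapped at both times, and neither change was called (-0.24 ± 0.15, adjusted p = 0.221, and 0.31 ± 0.15, adjusted p = 0.131). With the β-actin ratio as a covariate the 48 h value was 0.33 and passed (adjusted p = 0.034). The 24 h value was 0.10 with that covariate (adjusted p = 0.668) and -0.09 with the side of the gap as a block (adjusted p = 0.67). Without the treated array of the highest signal it was -0.40 and passed (adjusted p = 0.0289).

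Of the regulators, C4bpa encodes the α chain of C4b-binding protein, which takes apart the C3 convertase of the classical pathway. At 24 h it had 8594, 9250, 8442, 8207 and 9033 at 5000 µM, against 10152, 12311, 11808, 12203 and 13037 in vehicle. The treated arrays lay wholly below, a change of -0.45 ± 0.06 (adjusted p = 1.39e-06). At 48 h it had 9786, 10055, 9664, 9416 and 9777 at 5000 µM, against 10400, 10303, 10091, 10802 and 10906 in vehicle, a change of -0.11 ± 0.06 that was not called (adjusted p = 0.213) although the arrays did not overlap. The effects at the 2 times differed by 0.34 ± 0.09 (adjusted p = 0.00941).

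Cfi, the protease factor I that cuts C3b and C4b, varied least, with a range of 0.20 on the log2 scale over the 6 group means. Its signals ranged from 40934 to 46734 at 5000 µM against 43691 to 54173 in vehicle at 24 h, a change of -0.10 ± 0.06 that was not called (adjusted p = 0.173). At 48 h it had 39381, 42813, 40632, 38089 and 43770 at 5000 µM, against 45399, 51303, 47374, 43882 and 45682 in vehicle. The arrays did not overlap at 48 h, and Cfi fell by 0.19 on the log2 scale (adjusted p = 0.012), a call lost when every array was centred on its own median (-0.16, adjusted p = 0.0862).

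Across the 2 times at 5000 µM, the difference between effects was called upward for 3 of the 9 genes (C3, C8a and C4bpa), where 7.74% of all tested genes were called upward. It was called downward for 3 (C1s, C8b and C9), where 8.66% were called downward. With the β-actin ratio as a covariate the same 6 genes passed, where 4.55% of all tested genes were called upward and 5.08% downward. At 48 h the 6 genes called against vehicle were also all called with that covariate. In that fit 16.4% of all tested genes were called higher and 19.1% lower at 48 h.

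**Figure D3:**
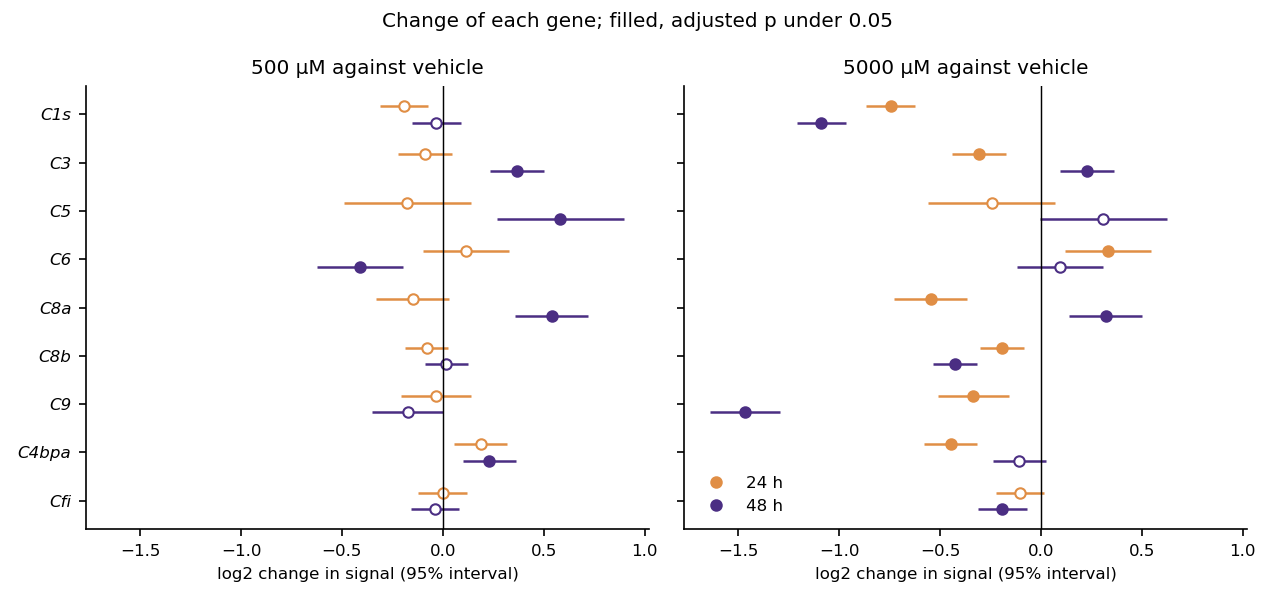
Log2 change of each complement gene against vehicle of the same time at 500 µM (left) and 5000 µM (right), with 95% intervals and filled points for adjusted p under 0.05. At 5000 µM C1s, C8b and C9 lie left of 0 at both times, and C3 and C8a change side between 24 and 48 h.

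At 500 µM and 24 h none of the 9 complement genes was called, where 1.65% of all tested genes were called higher and 1.21% lower. At an unadjusted limma p under 0.05, 1 was higher (C4bpa) and 1 lower (C1s). The changes ran from -0.19 (C1s) to 0.19 (C4bpa), with a median of -0.08. For C1s the arrays were 10272, 9965, 9316, 10151 and 9592 at 500 µM, against 11006, 12272, 10402, 11092 and 11623 in vehicle. These groups did not overlap, although the change missed the threshold (-0.19 ± 0.06, adjusted p = 0.0715). C8a had 10461, 10651, 9261, 7959 and 7885 at 500 µM against the vehicle range of 9294 to 10802, and its 2 lowest arrays were the 2 at that dose and time that lay below the gap in the β-actin ratio. C5 was likewise lowest in those 2 arrays, with 2945 and 2812, against 3710 to 4308 in the other three. Those 2 arrays were replicates 4 and 5, as were the vehicle arrays of 24 h below the gap. Side of the gap and replicate number therefore cannot be told apart in these groups.

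At 500 µM and 48 h, 4 of the 9 genes were called higher than vehicle (C3, C5, C8a and C4bpa), where 24% of all tested genes were called higher, and 1 was called lower (C6), where 18.6% were called lower. C3 had 51719, 55669, 52264, 51592 and 50385 at 500 µM, all above the vehicle range of 37852 to 44872 (0.37 ± 0.07, adjusted p = 6.88e-05). C8a had 10354, 10925, 11962, 10784 and 10109, all above the vehicle range of 7047 to 7840 (0.54 ± 0.09, adjusted p = 2.37e-05). C5 ranged from 3393 to 4457 at 500 µM against 1841 to 3041 in vehicle, also without overlap (0.58 ± 0.15, adjusted p = 0.0033).

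C4bpa had 11734, 11954, 12640, 11946 and 13404 at 500 µM and 48 h, all above the vehicle range of 10091 to 10906 (0.23 ± 0.06, adjusted p = 0.00482). C6 had 885, 856, 678, 633 and 938 at 500 µM, against 1031, 896, 1157, 1077 and 1106 in vehicle, which overlap in part (-0.41 ± 0.10, adjusted p = 0.00229). C1s, C8b, C9 and Cfi were not called, with changes from -0.17 (C9) to 0.02 (C8b). C9 had 5967, 5623, 5779, 5116 and 5506 at 500 µM, which overlapped the vehicle range of 5751 to 6991.

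All 5 arrays of this dose and time lay above the gap in the β-actin ratio and no vehicle array of that time did, so dose and ratio move together in this comparison. With the ratio as a covariate, C4bpa alone of the 9 genes was called (0.39 ± 0.08, adjusted p = 0.0056), beside 3.97% of all tested genes in either direction. In that fit C3 was at 0.20 (adjusted p = 0.175), C8a at 0.22 (adjusted p = 0.203), C5 at 0.06 (adjusted p = 0.903) and C6 at -0.25 (adjusted p = 0.349). With the side of the gap as a block, C4bpa was again the one gene called, beside 5.67% of all tested genes. Median centring of the arrays gave 3 genes higher and 2 lower, since C4bpa missed the threshold (0.16, adjusted p = 0.0785) and C9 passed it (-0.25, adjusted p = 0.0155). Of all tested genes 17.4% were then called higher and 26.1% lower.

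**Figure D4:**
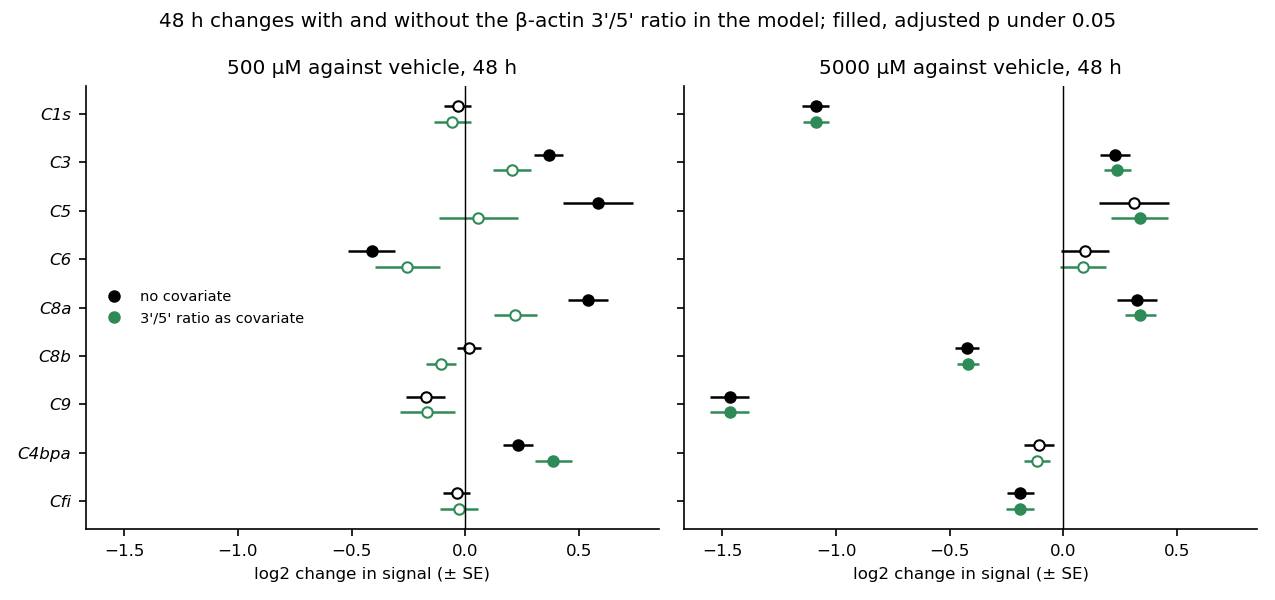
Log2 change of each complement gene against vehicle at 48 h for 500 µM (left) and 5000 µM (right), ± SE, without and with the log2 3'/5' β-actin ratio of each array as a covariate, with filled points for adjusted p under 0.05. At 500 µM C3, C5, C6 and C8a move towards 0 and lose their fill, and at 5000 µM the 6 called genes keep theirs.

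The difference between the effects of 500 µM at 48 and 24 h was called upward for 3 of the 9 genes (C3, C5 and C8a), where 22.1% of all tested genes were called upward, and downward for 1 (C6), where 14.5% were called downward. The differences were 0.46 ± 0.09 for C3 (adjusted p = 4.48e-04), 0.76 ± 0.22 for C5 (adjusted p = 0.00764), 0.69 ± 0.13 for C8a (adjusted p = 1.6e-04) and -0.53 ± 0.15 for C6 (adjusted p = 0.00622). None of the 9 was called with the β-actin ratio as a covariate. In that fit 0.0352% of all tested genes were called, against 36.6% without it, so the loss was not particular to these genes. With the side of its gap as a block, 2 (C3 and C8a) were called, beside 7.99% of all tested genes.

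The doses were also set against each other. At 24 h, 5 of the 9 genes were lower at 5000 than at 500 µM (C1s, C3, C8a, C9 and C4bpa), beside 14.3% of all tested genes, and none was higher, beside 16.8% (1 at an unadjusted limma p under 0.05). The largest of these was C4bpa (-0.63 ± 0.06, adjusted p = 3.56e-09), which had 8207 to 9250 at 5000 µM against 12636 to 16606 at 500 µM. The call of C3 (-0.22, adjusted p = 0.0108) was lost with the β-actin ratio as a covariate (adjusted p = 0.0627), with the side of its gap as a block (adjusted p = 0.0534) and without replicate 4 of 5000 µM (adjusted p = 0.0569). At 48 h, 6 were lower (C1s, C8a, C8b, C9, C4bpa and Cfi), beside 28.2%, and 1 was higher (C6), beside 19.4%. C9 fell by 1.29 and C1s by 1.06 on the log2 scale (adjusted p = 3.47e-13 and 1.01e-14), with no overlap of arrays, and with the β-actin ratio as a covariate they fell by 1.30 and 1.03. C8a was called at -0.22 ± 0.09 (adjusted p = 0.0423) but had 0.12 (adjusted p = 0.438) with that covariate. C6 (0.51, adjusted p = 1.98e-04) and Cfi (-0.15, adjusted p = 0.0334) also lost their calls with it (adjusted p = 0.0993 and 0.184), and Cfi lost its call with the block (adjusted p = 0.176) and after median centring (adjusted p = 0.619).

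In vehicle wells alone, 8 of the 9 genes were lower at 48 h than at 24 h, all but Cfi, where 19% of all tested genes were called lower. No complement gene of the 9 was higher, where 13.4% were called higher, and 0 were at an unadjusted limma p under 0.05. The median change of the 9 genes was -0.41, beside -0.008 over all tested genes. The fall was not shared by the 16 other complement genes tested, which are described below. Of these 16, 5 were called higher and 4 lower, where 13.4% and 19% of all tested genes were, and their median change was 0.11. C5 and C9 fell most, by 0.58 and 0.53 on the log2 scale (adjusted p = 0.00467 and 3.28e-05), and C4bpa least of those called (-0.18 ± 0.06, adjusted p = 0.0347). Cfi was at -0.01 ± 0.06 (adjusted p = 0.935). With the β-actin ratio as a covariate, 6 of the 8 stayed called, and C5 (-0.13, adjusted p = 0.729) and C8a (-0.17, adjusted p = 0.277) did not. In that fit 2.81% of all tested genes were called lower. Of the 16 other complement genes, 1 was called higher and 2 lower in it, where 2.34% of all tested genes were called higher. The call of C4bpa was lost when any of 6 single arrays was left out (adjusted p between 0.06 and 0.106).

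The order of the 6 group means differed from gene to gene. C1s ran from vehicle at 24 h, the highest, through 500 µM at 24 h, vehicle at 48 h, 500 µM at 48 h and 5000 µM at 24 h to 5000 µM at 48 h. In that order the arrays of vehicle at 48 h overlapped those of 500 µM at 24 h and of 500 µM at 48 h, and the other neighbours did not overlap. C9 ran from vehicle at 24 h through 500 and 5000 µM at 24 h, vehicle at 48 h and 500 µM at 48 h to 5000 µM at 48 h, with steps free of overlap below 500 µM at 24 h and below 500 µM at 48 h. C8b followed the order of vehicle, 500 and 5000 µM at 24 h, then 500 µM, vehicle and 5000 µM at 48 h, with steps free of overlap below 5000 µM at 24 h and above 5000 µM at 48 h. For C3, C5 and Cfi every pair of neighbours overlapped. C6 was highest at 5000 µM and 24 h, clear of the next group, and lowest at 500 µM and 48 h. C8a was highest at 500 µM and 48 h and lowest at 5000 µM and 24 h, and its one clear step separated 500 µM at 24 h from vehicle at 48 h. C4bpa was highest at 500 µM at 24 h, and its clear steps set vehicle at 48 h above 5000 µM at 48 h, and that group above 5000 µM at 24 h.

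Likeness of pattern was measured as the root mean square difference over the 6 group means on the log2 scale, after each gene's own mean was taken away. C3 and C5 were the closest pair among the 9 genes (0.0838), followed by C8a and C3 (0.112), and C9 had C1s as its nearest (0.33). Among all tested genes the 5 nearest to C9 were Gpt (0.0987), Wfdc21 (0.126), Ifitm3 (0.185), A2m (0.218) and Synrg (0.243). Gpt, which encodes alanine aminotransferase, had 3551, 2898, 2374, 2605 and 2296 at 5000 µM and 48 h, against 8573, 9034, 10187, 8119 and 5795 in vehicle, a change of -1.60 beside -1.47 for C9. A2m, the protease inhibitor α2-macroglobulin, had -0.92 in the same comparison. These genes were picked for their likeness to C9, so their changes are descriptions with no test.

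A list of 37 other complement genes had 26 named on the array, of which 16 were bright enough to test. At 5000 µM and 24 h, 5 of the 16 fell and 2 rose, where 19.6% and 18.6% of all tested genes did. At 48 h, 6 fell and 1 rose, where 18% and 14.6% of all tested genes did. Of these calls Masp1 at 24 h alone was lost with the β-actin ratio as a covariate. The median change of the 16 was -0.04 at 24 h and -0.12 at 48 h, beside -0.003 and -0.01 over all tested genes. Both proteases of the C1 complex, C1r and C1s, fell at both times. C1r, the protease that activates C1s, had 3760 ± 417 at 5000 µM against 5929 ± 475 in vehicle at 24 h, and 2670 ± 324 against 4803 ± 238 at 48 h (SD, n = 5 each). C1r did not overlap between groups at either time, and its changes were -0.66 ± 0.08 and -0.85 ± 0.08 (adjusted p = 7.49e-08 and 5.03e-10), beside -0.74 and -1.09 for C1s. Serping1, the inhibitor of both proteases, was called at neither time (-0.11 ± 0.06 and 0.09 ± 0.06, adjusted p = 0.172 and 0.289).

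Of the lectins, which recognise sugars on microbes, Mbl2 fell most. It had 7585, 6999, 6787, 6456 and 8281 at 5000 µM and 24 h, against 17525, 20902, 21313, 17936 and 20267 in vehicle, and 9331, 9672, 9933, 10218 and 10133 at 48 h, against 17103, 19035, 19127, 19194 and 18241. The groups were far apart at both times, with changes of -1.44 ± 0.06 and -0.91 ± 0.06 (adjusted p = 2.18e-18 and 1.83e-13). A second, dimmer Mbl2 probe set gave -0.51 and -0.93. Mbl1 fell at 24 h (-0.57 ± 0.09, adjusted p = 3.48e-06) and was at -0.06 ± 0.09 at 48 h (adjusted p = 0.63). Masp1, a lectin pathway protease, fell at 24 h (-0.54 ± 0.14, adjusted p = 0.00199) and missed the threshold at 48 h (-0.33 ± 0.14, adjusted p = 0.0597). Its 24 h change was -0.40 with the β-actin ratio as a covariate (adjusted p = 0.0525). A dimmer Masp1 probe set was not called at 24 h (-0.31, adjusted p = 0.216) and was called at 48 h (-0.54, adjusted p = 0.0235). Masp2 was not called at either time, but its second probe set was called at 24 h (-0.60, against 0.02 for the brightest).

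Of the other regulators, C4bpb, the β chain of C4b-binding protein, fell at both times, by 0.49 on the log2 scale each time (adjusted p = 0.00671 and 0.00809), while C4bpa was called at 24 h only. Whether C4bpa and C4bpb differed from each other was not tested. Vtn, which encodes vitronectin, a plasma inhibitor of pore formation, fell at 48 h (-0.34 ± 0.06, adjusted p = 3.58e-05) and was at 0.00 at 24 h. Cd59b, annotated as a form of the membrane inhibitor CD59, rose at both times (0.38 ± 0.06 and 0.36 ± 0.06, adjusted p = 2.42e-06 and 7.7e-06), with 17422 ± 1156 at 5000 µM against 13394 ± 886 in vehicle at 24 h. Cd46 rose at 24 h (0.53 ± 0.15, adjusted p = 0.00455) at a signal of 463 against 324, which is near the dimmest tested gene.

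**Figure D5:**
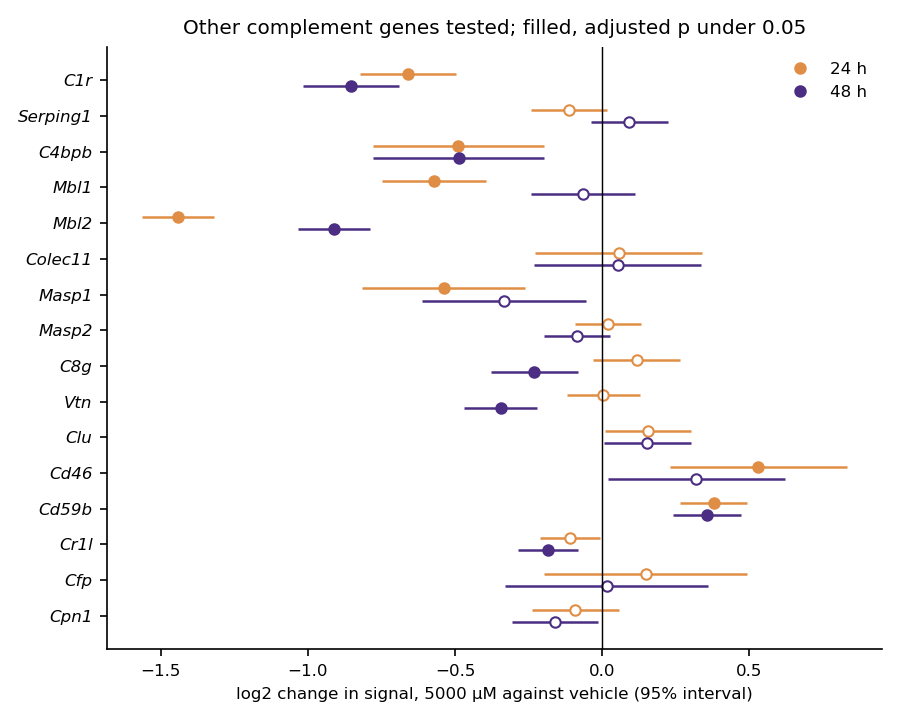
Log2 change at 5000 µM against vehicle of the same time for the 16 other complement genes tested, with 95% intervals and filled points for adjusted p under 0.05. C1r, C4bpb and Mbl2 lie left of 0 and Cd59b right of 0 at both times.

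At 500 µM and 24 h, 1 of these 16 genes was called higher (Cd46, 0.55 ± 0.15, adjusted p = 0.0356) and 1 lower (Mbl2, -0.28 ± 0.06, adjusted p = 0.00611), where 1.65% and 1.21% of all tested genes were. The second Mbl2 probe set gave 0.04. At 500 µM and 48 h, 2 were called higher (Serping1 and Mbl2) and 7 lower (C1r, C8g, Colec11, Masp2, Vtn, Cd59b and Cr1l), where 24% and 18.6% of all tested genes were. None of these 9 calls remained with the β-actin ratio as a covariate, with adjusted p between 0.0644 (C8g) and 0.661 (Mbl2). In that fit 3.97% of all tested genes were called. The probe sets also disagreed for 2 of these genes at 48 h, with 0.15 and -0.76 for Mbl2, and -0.32 for the brightest and 0.26 for the second of Masp2. The genes of C1q, C1qa, C1qb and C1qc, had group means between 36.5 and 405 and were too dim to be tested. Cfd, Fcna, Fcnb, Cd55, Cr2, C3ar1 and C5ar1 were likewise below the tested range.

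Transcription factors and cytokine signalling genes known to control complement genes in liver were listed as well, 16 in all, with 14 named and 13 tested. At 5000 µM and 24 h, 6 of the 13 fell (Cebpd, Stat3, Nfkb1, Il6r, Il6st and Il1r1) and 1 rose (Nfkbia), where 19.6% and 18.6% of all tested genes did. Of the 6, 4 lost their calls with the β-actin ratio as a covariate, where 14.7% of all tested genes were called lower. Stat3, which carries the interleukin-6 signal, was at -0.37 without and -0.03 with it, the receptor chains Il6r and Il6st at -0.33 and -0.03, and at -0.22 and -0.06, and Nfkb1 at -0.45 and -0.11. Dimmer probe sets gave -0.13 for Stat3, and 0.07, -0.25 and 0.09 for Il6st, without the covariate. At 48 h, 1 fell (Cebpd) and 2 rose (Cebpa and Nfkbia), where 18% and 14.6% of all tested genes did, and all 3 remained with the covariate. The probe sets of Il6st disagreed at 48 h, with 0.01 for the brightest and -0.69, -0.56 and -0.001 for dimmer ones. The first 2 of the dimmer ones passed in a limma fit over all probe sets with 1 symbol (adjusted p = 0.00242 and 4.26e-04). The mean of the Il6st probe sets gave -0.31 (limma, adjusted p = 0.00826).

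Nfkbia, an inhibitor of NF-kB, had changes of 0.38 ± 0.06 and 0.52 ± 0.06 at 24 and 48 h (adjusted p = 2.65e-06 and 8.54e-09). Cebpa, a liver-enriched C/EBP factor, was at 0.24 ± 0.08 at 48 h (adjusted p = 0.0125), and its 4 other probe sets gave 0.11 to 0.48. Cebpd was called lower at 24 and 48 h (-0.62 and -0.997) at low signal, 384 against 760 at 48 h, and 2 still dimmer probe sets gave -0.48 and 0.28 at 48 h, neither called. Il1r1, an interleukin-1 receptor, was at -0.47 at 24 h (adjusted p = 6.47e-05), but the mean of its probe sets gave 0.15 (adjusted p = 0.269). Its dimmer probe sets, at mean signals of 205 and 256, went the other way, with 0.67 and 0.25. In a limma fit over all probe sets with 1 symbol their adjusted p-values were 0.0196 and 0.488.

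At 500 µM and 48 h, 9 of the 13 were called higher (Hnf4a, Cebpa, Cebpb, Stat3, Nfkb1, Il6r, Il6st, Il1r1 and Nr1h4), where 24% of all tested genes were, and none lower, also at an unadjusted limma p under 0.05, where 18.6% were called lower. With the β-actin ratio as a covariate Hnf4a alone of the 9 was called (0.38, adjusted p = 0.0357, against 0.72 without it). Stat3 was then at 0.07, Nfkb1 at -0.11, Il6r at -0.11 and Il6st at -0.03, and none of them was called. Dimmer probe sets of several of these genes disagreed with the brightest in the fit without the covariate. They gave -0.10 and 0.59 for Hnf4a, -0.73 and -0.18 for Il1r1, and -0.04, 0.28 and -0.20 for Il6st. Those of Cebpa gave 0.07 to 0.49, and that of Stat3 gave 0.33.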

How the data were processed

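RNA from 30 wells was labelled and hybridised to Affymetrix rat 230 2.0 arrays, 5 per group. Per the submitters' processing notes the deposited intensity values are MAS5 signals (version not given in the sources used here), and the 2% trimmed mean of each array was 1500.55 to 1500.66. Of 31099 probe sets, 20826 had 1 gene symbol, 436 several and 9780 none, and 57 were controls. Symbols of 20758 probe sets were updated through Entrez identifiers in RefSeq. The brightest probe set stood for a gene. No 2 arrays held identical values, and arrays of a group correlated at 0.9592 to 0.9723.

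Groups were compared on log2 signal with limma 3.58.1 in R 4.3.3 (lmFit, and eBayes with an intensity trend), with 1 mean per group, 24 residual and 7.58 prior degrees of freedom, in 9 contrasts. The fit was tested on simulated data with 200 changed genes. Motifs were searched on both strands. The 9 genes and all lists were chosen with earlier results of these data known. Other complement genes were named when called, up to the 6 largest changes of a comparison, and liver factors when tested, with the genes nearest to the complement gene of widest range. The C1q genes, other untested genes, the full list called at 500 µM and 48 h and the C8a to C8b ratio were added after their values were seen. Alternatives were other scalings, filters, a pseudocount of 50, all probe sets of a gene averaged, fits of the compared groups alone, no trend, the β-actin ratio as covariate or block, the run of title numbers as block, and leaving out each array.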

Additional observations from a re-analysis of the deposited data

Results flagged for a closer look

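In 4 of 54 sets of 5 arrays (9 genes in 6 groups), 1 array stood apart from the other 4 by Dixon's criterion, which chance meets in about 1 of 20 such sets. They were the lowest C1s array of vehicle at 48 h (8063.07), the highest C4bpa array of 500 µM at 24 h (16606.5), the lowest C9 array of 500 µM at 24 h (8438.08) and the highest Cfi array of 500 µM at 48 h (51902.1). They are 4 different genes and no pattern is read from them.

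Several effects of acetaminophen differed between 48 and 24 h in limma's interaction test. At 5000 µM the difference on the log2 scale (the 48 h effect minus the 24 h effect) was -0.3446 for C1s, 0.5365 for C3, 0.3396 for C4bpa, 0.8678 for C8a, -0.2325 for C8b and -1.1326 for C9. At 500 µM it was 0.4565 for C3, 0.758 for C5, -0.5289 for C6 and 0.6901 for C8a. The 5000 µM differences passed with the β-actin ratio as a covariate and the 500 µM differences did not. With the covariate 9.62% of all tested genes passed at 5000 µM and 0.0352% at 500 µM, against 16.4% and 36.6% without it. The 2 doses share their vehicle arrays, so these differences are not independent of each other.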

How the results depend on the processing

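The counts of the 9 genes called kept within 1.5 times under most alternatives. For 500 µM at 24 h it was 1 after quantile normalization (C1s) instead of 0, and 0 to 1 when single arrays were left out, with C1s at -0.22 (limma, adjusted p = 0.0479) without vehicle replicate 3. For 500 µM at 48 h it was 1 with the β-actin ratio as covariate and 1 with it as block, instead of 5. Of all tested genes 3.97% and 5.67% were then called, instead of 42.6%. For 5000 against 500 µM at 48 h it was 4 with the covariate instead of 7, beside 20.9% of all tested genes instead of 47.6%. For the 500 µM difference between times it was 0 with the covariate and 2 with the block, instead of 4. Over all tested genes the calls there came to 0.0352% with the covariate and 7.99% with the block, instead of 36.6%. C8a at 5000 against 500 µM and 48 h turned to 0.119 with the covariate and 0.0365 with the block, from -0.22, and it also lost its call without any one of 8 arrays. Leaving out single arrays gave 7 to 8 calls at 5000 µM and 24 h, 5 at 500 µM and 48 h, 6 at 5000 µM and 48 h, 4 to 6 and 5 to 7 between doses at 24 and 48 h, 7 to 8 in vehicle over time, and 4 and 5 to 6 for the differences between times at 500 and 5000 µM. The β-actin difference between 5000 µM and vehicle at 24 h ranged from -0.50 (without 5000 µM replicate 1, exact permutation test, adjusted p = 0.0265) to -0.35. Averaging all probe sets turned Masp2 to -0.25 (5000 µM, 24 h), 0.0628 (500 µM, 48 h), -0.0232 (5000 against 500 µM, 48 h), -0.0804 (vehicle), 0.0652 and 0.29 (differences between times at 500 and 5000 µM), Mbl2 to -0.31 (500 µM, 48 h), 0.28 (vehicle) and -0.19 (difference at 500 µM), Il6st to -0.31 (5000 µM, 48 h), and Il1r1 to 0.15 (5000 µM, 24 h), -0.12 (500 µM, 48 h), 0.26 (5000 against 500 µM, 48 h), -0.0855 and -0.0084 (differences at 500 and 5000 µM). With the covariate Il6r, Il6st and Nfkb1 turned to -0.11, -0.0343 and -0.11 at 500 µM and 48 h, and between doses at 48 h Il6r and Il6st turned to 0.18 and 0.0553, Il6r to 0.0396 with the block. Median centring moved the median of all genes for the 500 µM difference between times from 0.0355 to -0.0856. Other settings kept 832 of 882 values of the 9 genes on their side of the threshold. The causes were not tested. The title numbers come in 5 runs of 6, with 1 array of each group, and the labels do not say what a run shares. At 24 h the vehicle and 500 µM arrays below the gap were those of runs 4 and 5. Of 75 pairs of arrays of one run, 31 correlated above 0.1 in their deviations from group means (median 0.062, against -0.018 between runs), and 19 of 30 arrays were closest to their own run. With the run as a replicate block, chosen after seeing the data, no call of the 9 genes was lost, and 7 genes were called instead of 6 at 5000 µM and 48 h (C5 gained), 8 instead of 7 between doses at 48 h (C3 gained) and 7 instead of 6 for the 5000 µM difference between times (C5 gained). No other probe set existed for the 9 genes. Single genes outside the named ones were not followed through the alternatives. The number of arrays limits precision, and C6 was the dimmest of the 9.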
